A study of Mus musculus with 6 samples.

Results

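Of the KLF2 peaks that CUT&RUN gave in large cavity macrophages (LCMs) of the mouse, 1524 lay in close pairs, that is, with exactly 1 other peak less than 10000 bases away in a chain of neighbours. The list held 6602 peaks, of which 6518 lay on chromosomes 1 to 19, and pairs were sought among these. The members were selected on their listed start and end alone. Peaks of a chromosome were sorted, the gap from the end of each peak to the start of the next was taken, and neighbours with a gap under 10000 bases were joined into groups. Groups of exactly 2 peaks are the pairs, and there were 762 of them. They held 23.4% of the peaks on these chromosomes and 23.2% of the bases that the peaks covered. A further 3676 peaks (56.4%) were alone and 1318 (20.2%) lay in 346 groups of 3 or more.

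KLF2 is a zinc finger transcription factor of the Krüppel-like family, whose members bind GC-rich sites of the CACCC type in promoters and enhancers. It is best known for keeping endothelial cells and lymphocytes quiescent, and LCMs are long-lived macrophages that reside in the fluid of the peritoneal and pleural cavities. In CUT&RUN an antibody brings a fusion of protein A and micrococcal nuclease to its target in permeabilised cells, and the DNA cut out around the target is sequenced. Regulatory stretches of the genome often carry several bound sites close together, so the spacing of peaks is a basic description of such data.

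The cells were LCMs sorted from the peritoneal cavity of GFP-KLF2 knock-in mice, in which eGFP is joined to the N terminus of KLF2 at its own locus, so that the fusion protein is under the control of the endogenous gene. Samples from 3 individual mice were each split between an anti-GFP antibody and rabbit IgG, which gave 3 anti-GFP and 3 IgG libraries that all carry the knock-in and received no treatment named in the labels. Per the study's methods, mice of both sexes on a B6 background were used as young adults. A library from mice without GFP was not analysed here. The deposited list gives the anti-GFP peaks called against IgG as 1 set of positions, with no signal, score, p-value or value per library. The depth behind a peak, its height and the spread between the 3 mice are therefore unknown here, and no replicate error or test over mice can be given for any value below. The list measures no expression, so the markers of the sorted cells could not be checked in it.

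Gaps between partners ran from 2 to 9981 bases, with a median of 777.5 bases and quartiles of 155 and 3725 bases. Since the limit of 10000 bases chose the pairs, these sizes describe the members and were not tested. In 121 pairs (15.9%) the gap was under 100 bases, in 200 (26.2%) it was 100 to under 500 bases, and in 441 (57.9%) it was 500 bases or more. More pairs thus lay beyond 500 bases than below, but they were spread thinly over a long range. The first 1000 bases held 418 pairs (54.9%) and the next 1000 held 77. From there on each step of 1000 bases held between 23 and 48 pairs, with 29 in the last step below the limit.

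At the shortest distances the gaps were not most frequent next to 0. Only 6 pairs had a gap under 20 bases and 18 had one of 20 to 39 bases. The number rose to 36 pairs at 40 to 59 bases, and it was 28, 33 and 32 pairs in the next 3 steps of 20 bases. Gaps of 40 to 119 bases made up 129 pairs, which is 16.9% of all pairs and 40.2% of those under 500 bases. Beyond this range the counts fell, to 20 pairs at 120 to 139 bases and to 49 pairs over the whole stretch from 200 to 299 bases. Gaps inside groups of 3 or more followed a similar course, so it was not particular to pairs. They numbered 2 under 20 bases, 18 at 20 to 39 bases and 38 at 40 to 59 bases. The next 3 steps held 37, 22 and 28 of them, and 55 lay from 200 to 299 bases.

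**Figure D1:**
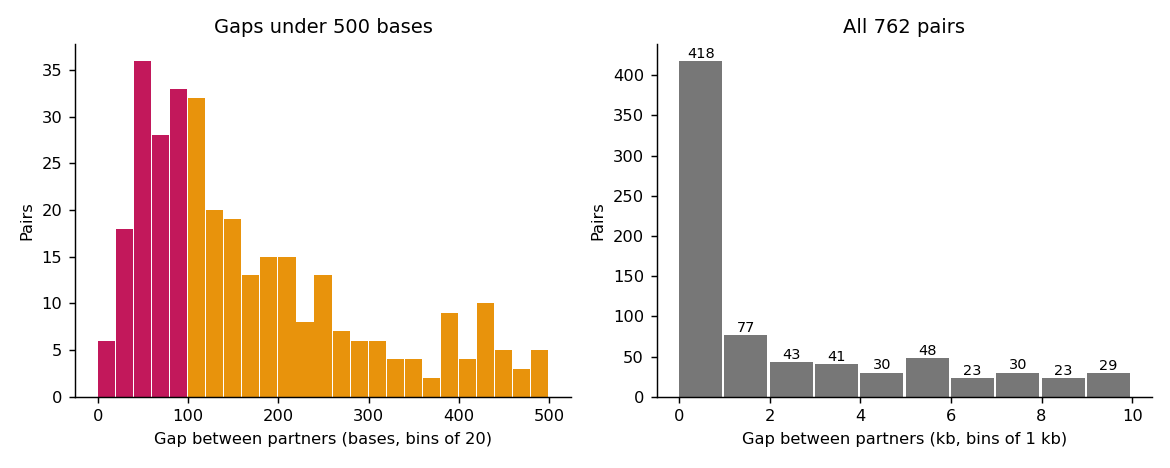
The left panel counts pairs with a gap under 500 bases in bins of 20 bases (magenta, under 100; orange, 100 to under 500), and the right panel counts all 762 pairs in bins of 1 kb, with the count above each bar. The short gaps are most frequent from 40 to 119 bases, and 418 of the pairs fall in the first 1 kb.

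Measured between peak centres, the 321 pairs with a gap under 500 bases were most frequent at 350 to 449 bases, where 86 of them (26.8%) lay. The centre distance includes part of the width of both peaks, so it cannot be small, and its lowest value was 249.5 bases. Its median was 413 bases for gaps under 100 bases and 567 bases for gaps of 100 to under 500 bases.

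The 5 closest pairs had gaps of 2, 3, 3, 4 and 7 bases. The closest was chr2:27365079-27365667 with chr2:27365670-27366399 (GRCm39, as all positions here), 2 peaks of 589 and 730 bases that were 2 bases apart. Pairs with a gap of 3 bases were chr6:113354537-113354826 with chr6:113354830-113355094, and chr9:31191041-31191604 with chr9:31191608-31192511. Widths were 290 and 265 bases in the former and 564 and 904 bases in the latter. The pair chr10:30493953-30494479 with chr10:30494484-30494994 was 4 bases apart, and chr2:119377654-119378120 with chr2:119378128-119378701 was 7 bases apart. Peaks covered over 99% of each of these stretches, between 99.3% and 99.8%. The nearest peak outside the pair lay 16835 to 69218 bases away.

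At the other end, the 5 widest gaps inside pairs were 9981, 9979, 9958, 9957 and 9931 bases. The widest joined chr5:124939706-124939993 to chr5:124949975-124950414. The next joined chr15:78699717-78700568 to chr15:78710548-78710893, followed by chr19:45035732-45036670 with chr19:45046629-45047852, chr2:31649724-31649938 with chr2:31659896-31660263, and chr5:31107871-31108180 with chr5:31118112-31118312. Just outside the limit, the closest lone peaks were 10049, 10064, 10142, 10152 and 10168 bases apart. From 10000 to 10999 bases there were 25 neighbouring pairs of lone peaks, beside 29 pairs with a gap of 9000 to 9999 bases. The counts on both sides of the limit were thus similar, and the smallest distance from a pair to the next peak was 10031 bases.

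The wider partner of a pair had a median width of 405 bases (quartiles 320 and 570) and the narrower one of 263 bases (quartiles 212 and 336). The ratio of the wider to the narrower had a median of 1.43 and ran from 1 to 7.03. It was 1.5 or more in 342 pairs (44.9%), 2 or more in 180 (23.6%) and 3 or more in 54 (7.09%). Peaks that lie far apart were unequal to a similar degree. Among the 4765 successive peaks 10000 bases or more apart, the wider had a median of 408 bases, the narrower of 259 bases and the ratio of 1.48, with 23.0% at 2 or more. Among 2860 successive lone peaks these were 406 bases, 259 bases, 1.47 and 21.8%.

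The widths of the partners were similar in the 3 gap classes. With gaps under 100 bases the wider and narrower partner had medians of 406 and 267 bases, with 100 to under 500 bases they had 387 and 249 bases, and with 500 bases or more they had 416 and 265 bases. The median ratio was 1.44, 1.41 and 1.42 in the same order. Pairs with a ratio of 2 or more numbered 32 of 121 (26.4%), 46 of 200 (23.0%) and 102 of 441 (23.1%). Over the 762 pairs the gap and the summed width had a Pearson correlation of 0.0067 on the log2 scale and a Spearman correlation of 0.0067.

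The widths of the 2 partners were only weakly related. Their Pearson correlation on the log2 scale was 0.0816 and their Spearman correlation 0.103 (762 pairs). It was as low within the gap classes, with Pearson values of 0.0681, 0.0635 and 0.0882 from the shortest to the longest gaps. Successive peaks 10000 bases or more apart gave a Pearson value of 0.0283, successive lone peaks gave 0.0110 and neighbours inside larger groups gave -0.0036. With a gap limit of 5000 bases the Pearson value of the partners was 0.0316, near the 0.0283 of peaks far apart, which was not computed again at that limit. The 95% interval of 0.0816, taken over pairs, ran from 0.0107 to 0.152. Pairs are not replicates, so this interval cannot decide whether partners differ from any of the other sets. These values do not establish a contrast between partners and peaks far apart or inside larger groups. All of these points come from 1 set of calls on the same libraries, so the values are descriptions. Along the chromosome, the first partner was the wider in 386 pairs, the second in 374, and both had the same width in 2.

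**Figure D2:**
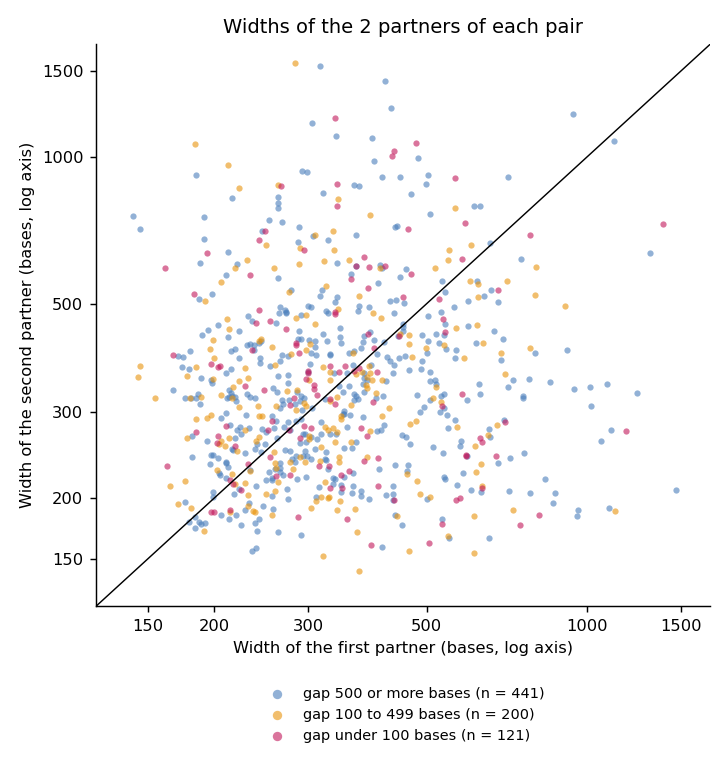
Each point is 1 of the 762 pairs, with the width of the first partner along the chromosome on the x axis and that of the second on the y axis (bases, log axes), coloured by gap class, and the line marks equal widths. Points of all 3 classes scatter on both sides of the line, with 386 pairs below it, 374 above it and 2 on it.

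The 5 most unequal pairs had ratios of 5.49 to 7.03. In the first, chr10:80096521-80097983 of 1463 bases was followed after 4936 bases by chr10:80102920-80103127 of 208 bases. The others were chr10:127123855-127124978 with chr10:127125256-127125443 (widths 1124 and 188 bases, gap 277), chr1:60605044-60605227 with chr1:60605708-60606770 (184 and 1063 bases, gap 480), chr11:117768645-117769741 with chr11:117772931-117773121 (1097 and 191 bases, gap 3189) and chr9:124195854-124196136 with chr9:124196319-124197871 (283 and 1553 bases, gap 182). In each of the 5 a peak over 1000 bases wide stood beside one under 300 bases. The last of them held the widest member of any pair and was also the last pair of peaks listed on chromosome 9.

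The 5 pairs with the greatest summed width had width ratios of 1.04 to 3.42. In chr8:72124057-72125175 with chr8:72128780-72129854 both partners were wide, at 1119 and 1075 bases, and their gap was 3604 bases. This was the greatest summed width of any pair, 2194 bases, and the only pair in which both partners were 1000 bases or wider. The pair on chromosome 19 with a gap of 9958 bases came next, with widths of 939 and 1224 bases. The third, chr2:33020305-33021690 with chr2:33021736-33022461, had peaks of 1386 and 726 bases that were 45 bases apart, so that a stretch of 2157 bases was covered to 97.9%. In chr11:115365885-115367196 with chr11:115368434-115369069 the widths were 1312 and 636 bases, and in chr5:135501026-135501443 with chr5:135507125-135508555 they were 418 and 1431 bases. Such wide partners were rare. Members of 1000 bases or more numbered 27, in 26 pairs. Both partners reached 500 bases in 35 pairs (4.59%), 1 of them did in 226 (29.7%), and neither did in 501 (65.7%).

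The length of genome that a pair took up followed from its gap. The span from the start of the first to the end of the second peak had a median of 1563 bases, and of 767, 897 and 3760 bases in the classes from short to long gaps. Peaks covered a median of 92.6%, 77.6% and 20.2% of it. Counted as 1 stretch each, the 321 pairs with a gap under 500 bases had a median length of 861 bases, from 447 to 2157 bases, and 100 of them (31.2%) reached 1000 bases. Of the 3676 lone peaks, 48 (1.31%) did. A stretch holds 2 peaks and the gap between them, so it is longer than 1 peak by construction, and the contrast says nothing about peak width.

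Members of pairs were about as wide as lone peaks. Their median width was 325 bases (quartiles 244 and 441.5), that of lone peaks was 324.5 bases (247 and 430) and that of peaks in groups of 3 or more was 332.5 bases (252 and 475). Peaks of 1000 bases or more made up 1.31% of lone peaks, 1.77% of pair members and 3.72% of peaks in larger groups. Seen the other way, pairs held 23.8% of peaks under 250 bases, 22.9% of those of 250 to under 500 bases, 24.5% of those of 500 to under 1000 bases and 21.8% of those of 1000 bases or more. The share in pairs hardly moved with width, whereas that in groups of 3 or more was 18.96%, 19.4%, 22.7% and 39.5% in the same classes. These differences come from the calls by which the groups were formed and were not tested.

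**Figure D3:**
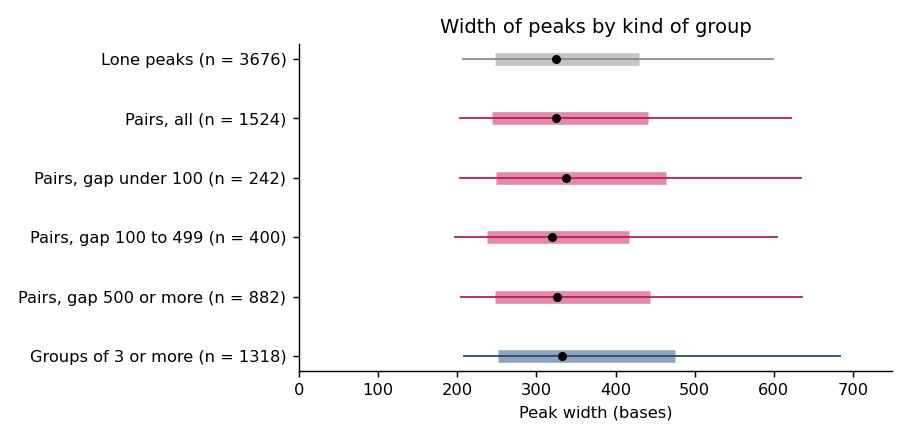
Peak width in bases is drawn for lone peaks, for members of pairs in all and by gap class, and for peaks in groups of 3 or more, with the number of peaks in brackets. Dots mark medians, thick bars the quartiles and thin lines the range from the 10th to the 90th percentile. Medians lie between 320 and 337 bases in every row.

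Short gaps were somewhat more frequent in pairs than between neighbours inside larger groups. The latter had 972 gaps with a median of 1148 bases, of which 117 (12.04%) were under 100 bases, 233 (24.0%) were 100 to under 500 bases and 622 (64.0%) were 500 bases or more. In pairs the same classes held 15.9%, 26.2% and 57.9%. Neighbouring gaps of a larger group share a peak, and no test was made.

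No peak outside a group could lie less than 10000 bases from it, because that limit formed the groups. The nearest peak outside a pair lay at a median distance of 45863 bases (quartiles 23187 and 117811), against 65379 bases for lone peaks and 31062 bases for groups of 3 or more. It was under 20000 bases away for 155 pairs (20.3%), for 16.2% of lone peaks and for 32.4% of larger groups, and 100000 bases or more away for 220 pairs (28.9%), 37.9% of lone peaks and 19.7% of larger groups. In this respect pairs stood between the other kinds. The neighbours of pairs were a lone peak in 1123 of 1521 cases (73.8%), another pair in 262 (17.2%) and a larger group in 136 (8.94%). For lone peaks these shares were 78.1%, 15.3% and 6.53%, and for larger groups they were 69.5%, 19.8% and 10.8%. Of all groups, 76.8% were lone peaks, 15.9% were pairs and 7.23% were larger groups. The neighbours of pairs were thus near the mix of all groups. Pairs stood next to each other in 131 places, and in 9 of these they were less than 20000 bases apart.

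**Figure D4:**
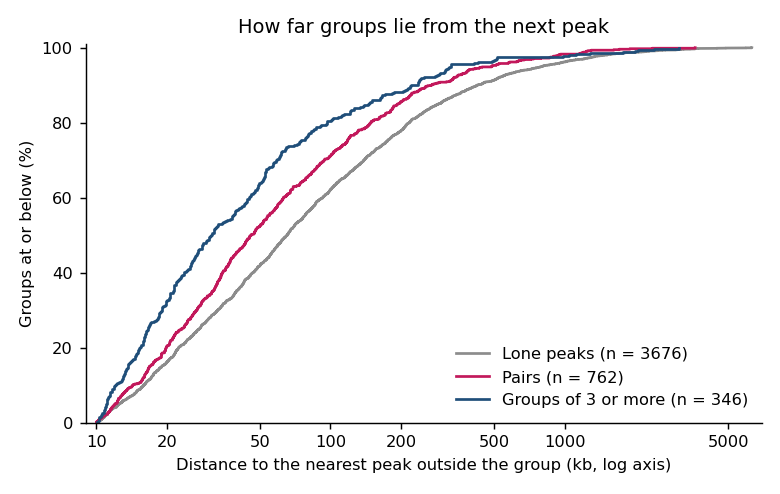
The curves give the percentage of groups (y axis) whose nearest outside peak lies at or below a distance in kb (x axis, log axis), for lone peaks, pairs and groups of 3 or more. The curve of the pairs runs between the other two over most of the range, and all start at the limit of 10 kb that formed the groups.

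Pairs occurred on all 19 chromosomes, from 11 on chromosome 18 to 80 on chromosome 11, with 68 on chromosome 7, 57 on chromosome 4 and 54 on chromosome 2. The share of peaks in pairs had a median of 23.1% and ran from 16.9% on chromosome 18 to 27.5% on chromosome 13. That of peaks in groups of 3 or more was more uneven, from 4.40% on chromosome 16 to 31.0% on chromosome 19, yet these chromosomes had 23.1% and 21.3% of their peaks in pairs. Larger groups held up to 20 peaks each, so a single group can move this share, and chromosomes 16 and 19 had only 182 and 300 peaks. The gap sizes varied more than the shares. Gaps under 500 bases made up 16 of the 26 pairs on chromosome 12 (61.5%), where the median gap was 259.5 bases, and 3 of the 11 pairs on chromosome 18 (27.3%), where it was 1381 bases. With so few pairs on a chromosome these percentages move by several points with each pair.

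**Figure D5:**
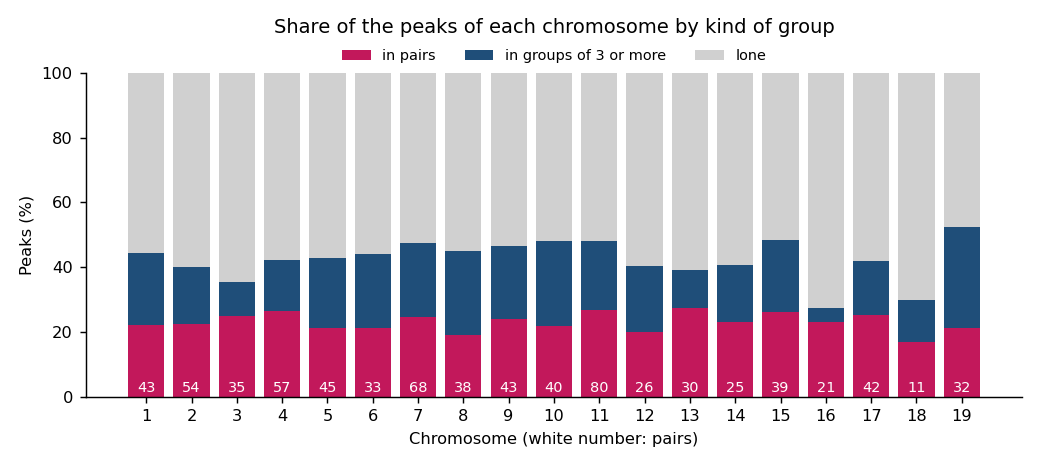
Bars divide the peaks of each of chromosomes 1 to 19 into those in pairs (magenta), in groups of 3 or more (blue) and lone (grey), in percent, and white numbers give the pairs. The magenta part stays between 16.9% and 27.5%, while the blue part runs from 4.40% to 31.0%.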

How the data were processed

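CUT&RUN libraries of LCMs from GFP-KLF2 mice were made with anti-GFP (3) or rabbit IgG (3), at 50 µg/ml antibody, with digestion for 2 h. The authors trimmed reads with Trim Galore 0.6.7, aligned them to GRCm39 with Bowtie2 2.4.2, scaled by E. coli spike-in reads and called peaks with SEACR 1.3 against merged controls. SEACR outlines stretches of contiguous signal. A gap is a stretch without a listed peak, and it may still hold signal that was not listed. Gaps may also move with depth, which was not tested. The authors reported only the highest-ranked share of peaks. The list has no score to check whether it is exactly that share, and another cut would change which peaks have neighbours. How the 3 libraries were combined is not given in the sources used here. The deposited list holds positions in bases, and no other value. The number of per-sample columns left unused was 0.

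Positions were read with Python 3.11.15 and pandas 2.3.3 and are printed counting from 1. Gap lengths, widths and groups were computed by code that was run on a simulated list with planted groups. Groups and the gap lengths of pairs were checked against the planted values, and widths were not. Named pairs were the 5 with the greatest summed width, smallest gap, largest gap and largest width ratio, with ties taken by position. Statements on other pairs were chosen after their values were seen. Members and rules were chosen with earlier results of these data known. Other gap limits, merging of close peaks and chromosomes X and Y were tried as alternatives.

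The genome and annotation at hand are GRCm38, whose chromosomes 8, 13 and 17 end before the last peaks of the list. Coordinates were not converted, so nearest genes, promoters, motifs and sequences of the pairs were not analysed here.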

Additional observations from a re-analysis of the deposited data

Results flagged for a closer look

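The same gap limit gave pairs outside chromosomes 1 to 19, on sequences that no comparison above uses. Like the rest of the list, they were called by the authors against IgG. Chromosome X held 5 pairs among its 65 peaks (15.4% of its peaks), with gaps of 61 to 5626 bases, 2 of them under 500 bases. Chromosome Y held 1 pair among 3 peaks, with a gap of 1375 bases. Unplaced scaffolds held 3 pairs among 16 peaks, with gaps of 404 to 7465 bases.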

How the results depend on the processing

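A value was counted as moved where it left the 95% interval of the reported value over pairs, or, for the number of pairs, changed by over 1.5 times. Pairs are not replicates, so this is only a yardstick. By it 15 of 40 alternative values moved, 25 did not and 0 reversed. Only the correlation could have changed sign, since counts, shares, widths and ratios are never negative. The number of pairs was within 1.5 times of 762 throughout, at 724 with a gap limit of 5000 bases, 776 with 20000 bases, 689 and 551 with peaks closer than 100 and 500 bases merged first, and 768 with X and Y. The pairs themselves changed more than their number. Of the 762 pairs, 609 were also pairs at 5000 bases and 607 at 20000 bases, beside 115 and 169 new pairs. With peaks closer than 100 and 500 bases merged, 641 and 441 were kept, beside 48 and 110 new pairs. The overlaps at 5000 and 20000 bases follow from the limits. The 609 are the pairs with a gap under 5000 bases, and the 155 lost at 20000 bases had an outside peak nearer than that. The shares of gaps under 100, of 100 to under 500 and of 500 bases or more, 15.9%, 26.2% and 57.9% as reported, became 19.1%, 32.2% and 48.8% at 5000 bases and 11.98%, 21.0% and 67.0% at 20000 bases. A lower limit cuts off long gaps and a higher one admits longer gaps, so these shares moved in part by construction. Merging removes the short gaps by construction, leaving 0%, 31.6% and 68.4% at 100 bases and 0%, 0% and 100% at 500 bases. Merging at 500 bases also moved the median width of the wider partner to 481 bases, of the narrower to 276 bases and their ratio to 1.51. The correlation of the partners' log2 widths lay between 0.0316 (limit of 5000 bases) and 0.0848, and counts as not moved against 0.0816 only because its interval is wide.

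No paired analysis was possible because the positions are 1 set for all libraries, and for the same reason no run without a replicate exists. Other settings for promoter distance, gene class and KLF motif were not run, as they need GRCm39 sequence or genes. Depth per peak is unknown, so the list does not show how many pairs would join into 1 peak at another depth.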

Other observations

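The 2 pairs with partners of equal width, noticed after the values were seen, were chr4:155011546-155011850 with chr4:155014174-155014478, of 305 bases each and 2323 bases apart, and chr9:106076555-106076733 with chr9:106080094-106080272, of 179 bases each and 3360 bases apart. The scaffold JH584304.1 held 2 of the pairs outside the chromosomes, with widths of 1254 and 1883 bases in one and of 2814 and 367 bases in the other. Of the members of pairs on chromosomes 1 to 19, the widest had 1553 bases.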
